A study of Mus musculus with 14 samples.

Results

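The 37 genes described here copy the genome or prepare a cell to do so. They form a list of DNA replication genes given by name, from MCM2 to CASP8AP2, and all 37 are among the 22842 genes that both deposited count tables share. The list falls into 7 roles: 9 genes of origin licensing, 3 of origin firing, 5 of DNA synthesis at the fork, 4 of nucleotide supply, 6 of histone supply and chromatin copying, 9 of fork protection, checkpoint and repair, and the E2F transcription factor E2F8.

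The mouse study traced adult hematopoietic stem cells with an inducible reporter, Tom, and asked how fast and along which routes their progeny differentiate in the undisturbed animal. Lineage-negative (Lin-) Tom+ cells, that is reporter-marked cells without the surface markers of mature blood cells, were sorted singly into plates of 96 wells and sequenced at their transcripts' 3′ ends by a modified Smart-seq2 method. Mouse m4539 stands for day 3, mouse m4533 for day 10 and mice m4528, m605 and m606 for day 17, and 1 further day 17 plate mixed cells of m605 and m606. All groups share the Tom reporter and the Lin- gate. The labels give no genotype beyond Tom, no strain, age or promoter that drives the reporter, and no starting event for the days. Day 3 and day 10 rest on 1 mouse each, so these days have no replicate error.

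DNA replication is prepared in the G1 phase, when CDC6 and CDT1 load the ring-shaped MCM helicase onto origins, and is carried out in S phase, when CDC45 and the GINS complex switch that helicase on and polymerases follow it. Most of these genes are transcribed by E2F factors at the passage from G1 into S phase, so resting cells hold little of their mRNA. Adult blood stem cells are known to be mostly quiescent, while the progenitors downstream of them divide often.

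The promoters of these genes were searched for the E2F words TTTCCCGC, TTTGGCGC, TTTGCCGC and TTTCGCGC on both strands, from 250 bases before to 50 bases after the RefSeq start site (GRCm38.p6). Of the 37 genes, 30 had such a window, and 12 of the 30 (40%) held at least 1 of the words, against 4.20% of 12466 genes of both count tables with a window and 4% of 25 genes of G2 and M phase. The 12 are MCM3, MCM5, MCM6, MCM7, CDC6, CDT1, POLA1, CASP8AP2, UHRF1, HELLS, CLSPN and DTL. The word CCAAT, the core of the site bound by NF-Y, stood in 70% of the 30 genes and 42.3% of the 12466, and the word TTTGAA, the cell cycle homology region known from genes of G2 and M phase, in 20% and 15.2%, with 72% among the 25 genes of G2 and M phase. Words of different motifs were counted without regard to overlap, and a match describes letters only. The 250 bases upstream of 4 start sites are shown with their E2F words in capitals. MCM6 (chr1:128359706-128359955, minus strand) and MCM5 (chr8:75109259-75109508, plus strand) were called higher in 4 of 5 differentiating lineages below, while POLA1 (chrX:93632156-93632405, minus strand) and DTL (chr1:191575545-191575794, minus strand) were called in none.
MCM6: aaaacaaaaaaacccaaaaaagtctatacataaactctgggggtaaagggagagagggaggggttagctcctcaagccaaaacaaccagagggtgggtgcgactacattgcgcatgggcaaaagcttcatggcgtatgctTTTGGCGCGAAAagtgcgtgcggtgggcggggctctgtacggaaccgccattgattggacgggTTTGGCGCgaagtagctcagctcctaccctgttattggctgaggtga
MCM5: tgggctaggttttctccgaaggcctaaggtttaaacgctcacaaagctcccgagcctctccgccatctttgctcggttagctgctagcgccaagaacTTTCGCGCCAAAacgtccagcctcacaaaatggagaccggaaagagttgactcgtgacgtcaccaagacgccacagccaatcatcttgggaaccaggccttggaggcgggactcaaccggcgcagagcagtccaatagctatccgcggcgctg
POLA1: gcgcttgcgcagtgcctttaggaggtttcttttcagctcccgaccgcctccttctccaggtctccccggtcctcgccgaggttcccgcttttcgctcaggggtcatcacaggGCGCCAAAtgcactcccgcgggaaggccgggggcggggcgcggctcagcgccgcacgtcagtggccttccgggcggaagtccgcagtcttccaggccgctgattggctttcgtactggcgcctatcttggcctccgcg
DTL: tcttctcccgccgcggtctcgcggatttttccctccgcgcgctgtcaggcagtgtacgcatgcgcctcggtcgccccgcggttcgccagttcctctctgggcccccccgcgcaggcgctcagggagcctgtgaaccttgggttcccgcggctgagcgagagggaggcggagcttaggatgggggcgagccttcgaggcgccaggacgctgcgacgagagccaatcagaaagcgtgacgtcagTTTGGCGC
In MCM6 one E2F match begins 110 bases and another 47 bases before the start site, and the first of them is a pair of overlapping words on opposite strands. The match begins 153 bases before the start site in MCM5, 138 in POLA1 and 8 in DTL. In MCM5 it is also a pair of overlapping words on opposite strands. The E2F words were found both in promoters of genes that were called and in promoters of genes that were not.

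After filtering at 500 genes and 10000 counts, 1010 cells remained, with 190, 107, 288, 143 and 189 cells in mice m4539, m4533, m4528, m605 and m606 and 93 on the mixed plate. Total counts per mouse ran from 25482791 to 64257177, and the median cell of a mouse held 118001 to 286917 counts. Cells were assigned to a lineage when at least 3 of its fixed markers exceeded 10 counts and their share was larger than that of any other lineage. This gave 47 multipotent progenitor-like, 102 megakaryocyte-like, 123 erythroid-like, 134 neutrophil-like, 68 monocyte-like, 13 basophil or mast cell-like and 436 stem-like cells, and 87 cells stayed ungated. Among the 10 leading genes by fold of every gate, none was a marker of another gated lineage, which the gating rule itself favours. The gate's own markers among these 10 numbered 1 in the stem-like and 1 in the monocyte-like gate. They numbered 2 in the multipotent progenitor-like, 3 in the megakaryocyte-like, 4 in the erythroid-like, 4 in the neutrophil-like and 7 in the basophil or mast cell-like gate. The monocyte-like gate was also led by CD209A, a gene known from dendritic cells, and the multipotent progenitor-like gate by PRG2, an eosinophil gene. Markers of B cells, macrophages, eosinophils and stromal or endothelial cells summed to at most 216 CPM (counts scaled to 1000000 counts of the summed cells) over all cells of a mouse. These sums were not taken per lineage. In all, 15 cells had 2 or more eosinophil markers on. Depth differed between gates, with a median of 220265 counts per erythroid-like cell and 115534 per stem-like cell.

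Differentiating cells carried many replication transcripts and stem-like cells few. A gene was called on in a cell above 10 counts. At day 17 the median erythroid-like cell had 20, 28 and 30 of the 37 genes on in mice m4528, m605 and m606, the neutrophil-like cell 24, 13 and 27, the monocyte-like cell 24, 16 and 19, and the megakaryocyte-like cell 19, 17 and 12. The median stem-like cell had 3, 1.5 and 3 of them on in the same 3 mice. Every differentiating lineage lay above the stem-like cells in each mouse. The 14 megakaryocyte-like cells of day 10 had a median of 16 genes on, against 3 in the 76 stem-like cells of the same mouse. In the stem-like gate 18 of 436 cells had 8 to 11 genes on. At day 3, 18.5% of stem-like cells had at least 6 genes on, 9.55% at least 10 and 3.37% at least 15. At day 10 these shares were 18.4%, 9.21% and 7.89%, so stem-like cells with intermediate numbers were present.

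**Figure D1:**
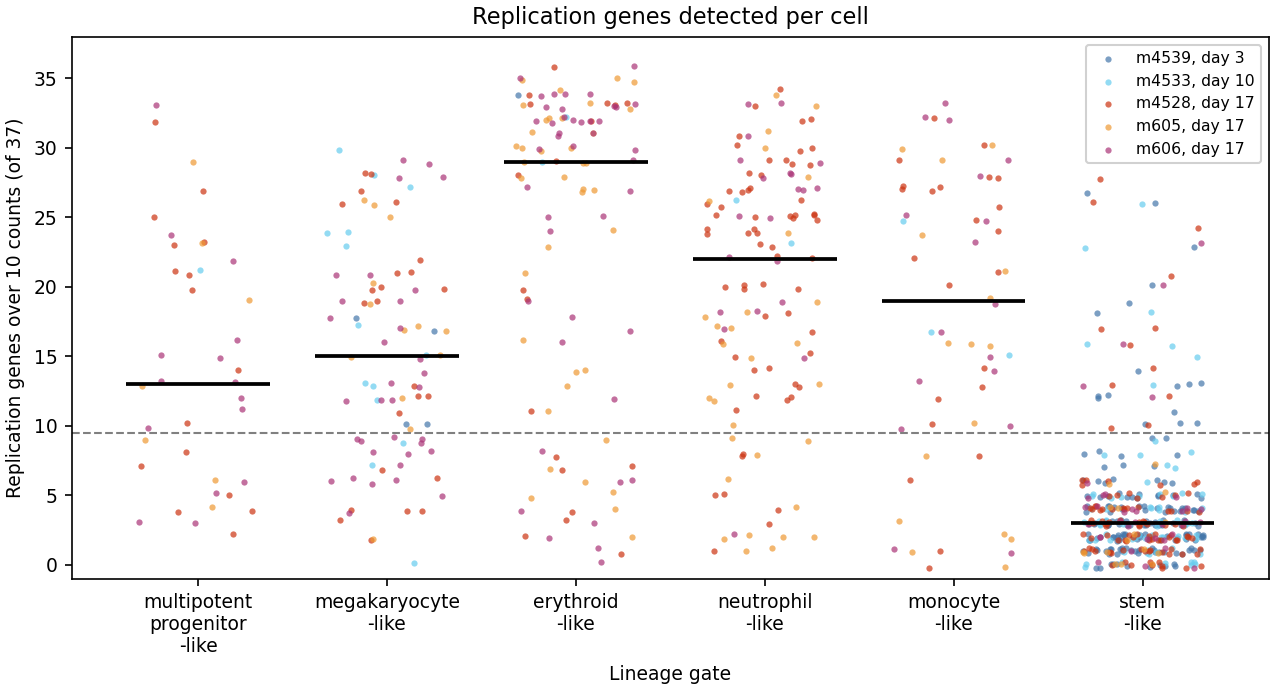
Number of the 37 replication genes above 10 counts in each cell, by lineage gate, with cells coloured by mouse. Black bars are medians over cells and the dashed line separates cells with 10 or more genes on; stem-like cells centre on 3 genes and erythroid-like cells near 30.

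A cell with 10 or more of the 37 genes on is called replication-high here. At day 17 these were 67.9% of multipotent progenitor-like cells (mean of 2 mice), 73.0% ± 18.3 of megakaryocyte-like, 75.5% ± 10.7 of erythroid-like, 82.9% ± 16.3 of neutrophil-like and 77.8% ± 13.5 of monocyte-like cells, against 8.21% ± 7.21 of stem-like cells (SD, n = 3 mice). The differentiating lineages lay within the spread between mice of one another, and all of them lay above the stem-like cells. After every cell had been thinned to 50000 counts, with shallower cells left out and a gene on above 5 counts, the shares were 63.3%, 68.2% ± 14.4, 78.5% ± 18.7, 79.8% ± 20.4 and 77.2% ± 0.931 in the same order, against 9.41% ± 8.97 in stem-like cells. Thinning left out 8 of 16 and 9 of 37 stem-like cells in m605 and m606, and at most 4 cells of a differentiating lineage in a mouse. The stem-like cells remained lowest at this equal depth. Of the 13 basophil or mast cell-like cells, no mouse held 10, so this lineage was not tested.

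**Figure D2:**
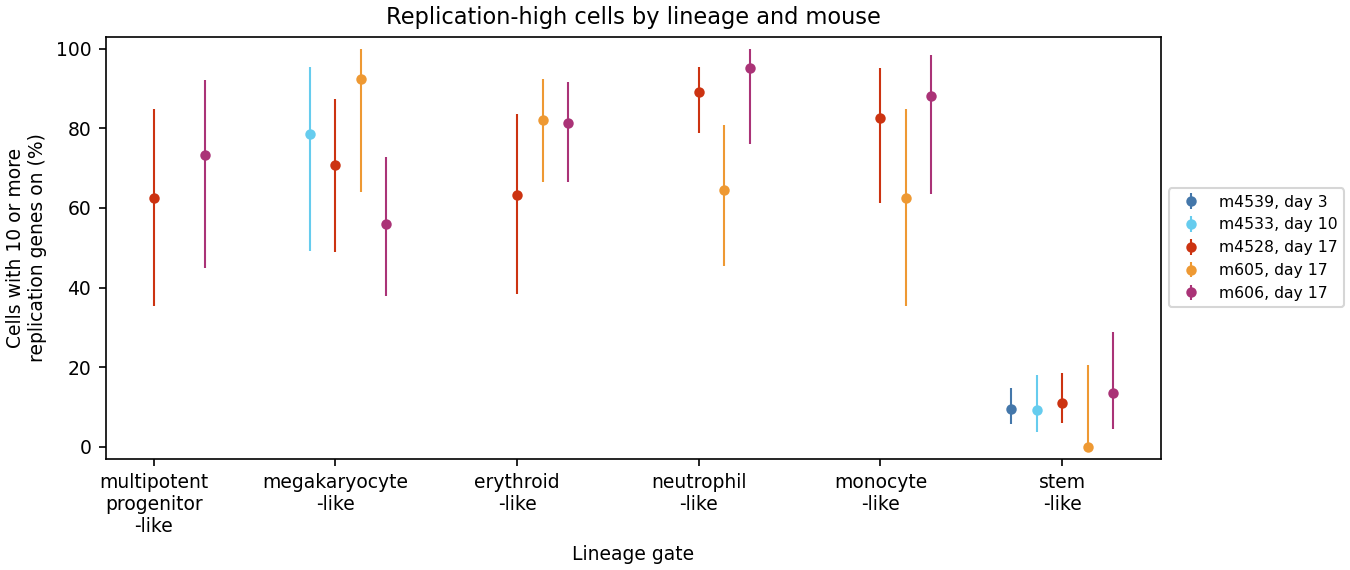
Share of cells with 10 or more replication genes on, for each mouse with at least 10 cells of a lineage. Bars are exact 95% binomial intervals; stem-like shares lie between 0 and 13.5% and all other shares at 55.9% or above.

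Counts were summed per mouse and lineage and each lineage was compared with stem-like cells, with the mouse as a block, by the quasi-likelihood test of edgeR, with p-values adjusted over 16765 genes by the Benjamini-Hochberg method. In erythroid-like cells 24 of the 37 genes were called higher (adjusted p under 0.05) and none lower, while 5.30% of all genes tested were called higher. The members' median log2 change was 2.26, against 0.0060 over all genes tested. In monocyte-like cells 20 of 37 were called higher (4.73% of all genes), in neutrophil-like cells 19 (3.20%), in megakaryocyte-like cells 15 (1.69%) and in multipotent progenitor-like cells 4 (0.477%), none being called lower. The median log2 changes of the members were 1.82, 1.77, 1.59 and 1.46 in these lineages, against -0.12, 0.012, -0.10 and -0.21 over all genes. The counts of calls rested on single mice: without m4528 they were 13, 7, 5, 2 and 0 for erythroid-like, monocyte-like, neutrophil-like, megakaryocyte-like and multipotent progenitor-like cells, and without m606 they were 11, 5, 2, 0 and 0. Calls over all genes fell too, with 1.90%, 1.65%, 0.906%, 0.314% and 0.157% of them called higher without m4528 and 0.678%, 0.957%, 0.242%, 0.0121% and 0% without m606 in the same order. With at least 20 cells per mouse and lineage they were 19 for erythroid-like, 10 for neutrophil-like and 0 for megakaryocyte-like cells, where 1.65%, 0.928% and 0% of all genes were called higher. Monocyte-like cells reached 20 in m4528 only (23 cells), so no calls are given for them. A cell gated to a lineage sits there by its markers, and none of the 37 genes is a gate marker.

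**Figure D3:**
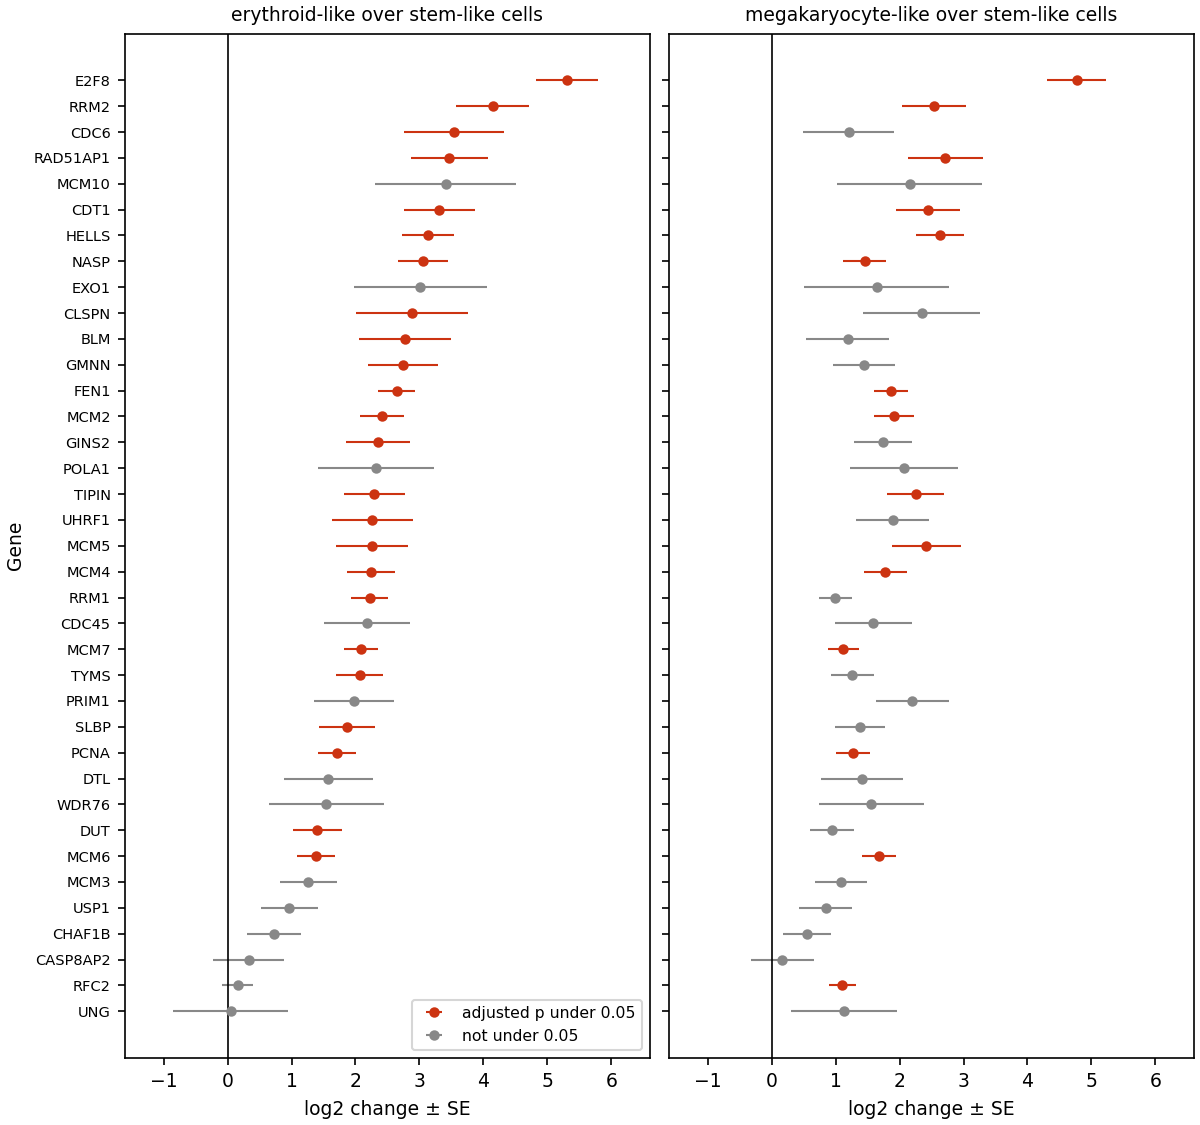
Fitted log2 change of each replication gene in erythroid-like (left) and megakaryocyte-like (right) over stem-like cells, with its standard error, ordered by the erythroid-like change. Red points have an adjusted p under 0.05 (24 genes left, 15 right), and E2F8 tops both panels at 5.31 and 4.77.

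MCM4, NASP, HELLS and E2F8 were called higher in all 5 lineages. Another 10 genes were called in 4, namely MCM2, MCM5, MCM6, MCM7, CDT1, PCNA, FEN1, RRM2, TIPIN and RAD51AP1, and 5 in 3, namely GMNN, GINS2, RRM1, TYMS and UHRF1. A further 7 genes were called in 1 lineage, RFC2 in megakaryocyte-like, CDC45 in monocyte-like and CDC6, DUT, SLBP, CLSPN and BLM in erythroid-like cells. The remaining 11 (MCM3, MCM10, POLA1, PRIM1, CHAF1B, CASP8AP2, USP1, DTL, UNG, EXO1 and WDR76) were called in none. The fitted change was positive for 37 of 37 genes in 4 of these lineages and for 36 in monocyte-like cells, where CHAF1B was at -0.067. A gene that misses the threshold in a lineage is not shown to be level there.

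Origin licensing rose in most of its members. Of its 9 genes, 8 were called higher in erythroid-like, 7 in neutrophil-like, 7 in monocyte-like, 6 in megakaryocyte-like and 1 in multipotent progenitor-like cells. MCM2, a helicase subunit, had 525.8, 252 and 313 CPM in erythroid-like cells of m4528, m605 and m606, against 82.9, 133, 89.1, 24.7 and 105 CPM in stem-like cells of m4539, m4533, m4528, m605 and m606. The lowest erythroid-like value lay above the highest stem-like one, and the change was 2.42 (log2, SE 0.34, adjusted p = 0.000535). MCM6, another subunit of the ring, had 1047, 543 and 637 CPM in erythroid-like cells, against 348, 537, 417, 164 and 265 CPM in stem-like cells, the mice being in the same order. The lowest erythroid-like value lay just above the highest stem-like one, and MCM6 was on in 29.0% of day 17 stem-like cells. The loading factor CDC6 had 303, 131 and 186 CPM in erythroid-like cells, against 16.7, 29.8, 27.1, 1.23 and 30.0 CPM in stem-like cells. CDC6 was called in erythroid-like cells (3.54, SE 0.78, adjusted p = 0.0102) but in no other lineage, and in megakaryocyte-like cells its change was 1.20 (SE 0.71, adjusted p = 0.405). The difference between these lineages, 2.34 (SE 0.75), had an adjusted p of 0.108. CDT1, which loads the ring together with CDC6, rose by 3.31 in erythroid-like cells and by 2.44 in megakaryocyte-like cells (adjusted p = 0.00181 and 0.0185). MCM3, a further subunit of the ring, had 367, 284 and 261 CPM in erythroid-like cells, against 113, 226, 220, 30.8 and 141 CPM in stem-like cells, and its change of 1.26 had an adjusted p of 0.0893. GMNN encodes geminin, the inhibitor of CDT1, and rose by 2.75 in erythroid-like cells (adjusted p = 0.00546), with 1.44 in megakaryocyte-like cells (adjusted p = 0.128).

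The genes that start the helicase were rare in stem-like cells. MCM10, CDC45 and GINS2 were each on in 3.35%, 3.35% and 4.25% of stem-like cells at day 17, and in 41.6%, 56.2% and 57.2% of erythroid-like cells, as means of the 3 mice in that gene order. MCM10, which helps to switch on the helicase, had 183, 54.5 and 95.6 CPM in erythroid-like cells, against 2.72, 0.285, 67.4, 0 and 13.99 CPM in stem-like cells. Its groups overlapped only across mice, through stem-like cells of m4528, whose own erythroid-like value was higher. The change of 3.41 had an adjusted p of 0.0639. The 16 stem-like cells of m605 held no MCM10 count, and against a floor of 3 counts in that library the erythroid-like level of that mouse was at least 14.7-fold higher. CDC45, which joins the active helicase, had 152, 118 and 158 CPM in erythroid-like cells, against 32.7, 14.98, 48.8, 1.23 and 61.5 CPM in stem-like cells. Its groups did not overlap, and its change of 2.18 had an adjusted p of 0.0508, while it was called in monocyte-like cells (2.30, adjusted p = 0.0477). Exons of CDC45 overlap UFD1 (UFD1L in the tables) on the opposite strand, which had 290.6 CPM ± 27.1 in erythroid-like and 148 ± 16.8 in stem-like cells at day 17 (SD, n = 3 mice), so the values of CDC45 are uncertain. GINS2, a subunit of the helicase's activating complex, was called in erythroid-like (2.35), neutrophil-like (2.56) and monocyte-like cells (2.70). Exons of GINS2 overlap GSE1 on the opposite strand, and no source used here says whether counting used strand, so its values are uncertain. GSE1 itself had 60.6 CPM ± 29.0 in erythroid-like and 87.7 CPM ± 30.1 in stem-like cells at day 17 (SD, n = 3 mice).

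At the fork itself, the sliding clamp PCNA and the flap nuclease FEN1 rose in 4 lineages each. PCNA had 242, 272 and 261 CPM in erythroid-like cells, against 90.8, 93.6, 73.8, 71.5 and 107 CPM in stem-like cells. The groups did not overlap, and the change was 1.71 (adjusted p = 0.00204). FEN1, which trims the joints of lagging-strand fragments, had 385, 409 and 353 CPM in erythroid-like cells, against 83.7, 70.1, 102.9, 49.3 and 63.5 CPM in stem-like cells. It rose by 2.64 in erythroid-like cells (SE 0.29, adjusted p = 0.000101) and by 1.86 in megakaryocyte-like cells. POLA1 and PRIM1 encode the polymerase and the primase that begin each new strand, and neither was called in any lineage; PRIM1 came close, with changes of 1.97 to 2.20 in erythroid-like, monocyte-like and megakaryocyte-like cells and adjusted p of 0.0600, 0.0520 and 0.0554. PCNA has the pseudogene copies PCNA-PS1 and PCNA-PS2 in the tables, and exons of FEN1 overlap TMEM258 on the opposite strand, so both values carry that uncertainty. The same holds for MCM7 and COPS6 and for predicted loci that overlap SLBP and E2F8. COPS6 had 493.4 CPM ± 183 in erythroid-like and 345 ± 223 in stem-like cells at day 17. TMEM258 had 385 CPM ± 287 in erythroid-like and 389 ± 357 in stem-like cells at day 17 (SD between mice).

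RFC2, a subunit of the clamp loader, was called in megakaryocyte-like cells. It had 794, 1165, 1156 and 572 CPM in megakaryocyte-like cells of m4533, m4528, m605 and m606, and 535, 454 and 392 CPM in erythroid-like cells of m4528, m605 and m606. Stem-like cells had 384, 511, 659, 301 and 339 CPM of RFC2. The erythroid-like and stem-like values overlapped fully (change 0.16, SE 0.24, adjusted p = 0.739, below 0 under DESeq2 size factors), while the megakaryocyte-like change was 1.11 (SE 0.22, adjusted p = 0.0152). RFC2 was also the gene most often on in stem-like cells with fewer than 10 members on, in 38.9% of them. Exons of RFC2 overlap LAT2 on the opposite strand. LAT2, an adaptor protein gene of mast and B cells, had 227 CPM ± 128 in monocyte-like cells, 29.8 ± 18.1 in megakaryocyte-like, 15.5 ± 22.1 in erythroid-like and 12.5 ± 18.5 in stem-like cells at day 17. RFC2 was not called in monocyte-like cells (0.50, adjusted p = 0.226).

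All 4 genes of nucleotide supply were called higher in erythroid-like cells. RRM1 and RRM2 are the subunits of ribonucleotide reductase, which makes the building blocks of DNA. RRM2 had 585, 496 and 575 CPM in erythroid-like cells, against 28.0, 50.4, 71.4, 22.2 and 14.4 CPM in stem-like cells, without overlap (4.14, SE 0.58, adjusted p = 0.000489). RRM1 had 853, 489 and 671 CPM in erythroid-like cells, against 254, 335, 241, 80.2 and 113 CPM in stem-like cells. Its groups did not overlap either, and its change was 2.22 (SE 0.29, adjusted p = 0.000341). TYMS, which makes thymidylate, rose by 2.06 in erythroid-like cells (adjusted p = 0.00257) and had 1.26 in megakaryocyte-like cells (adjusted p = 0.0623). DUT, which keeps uracil out of DNA, had the smallest change of the 4. It had 970, 1872 and 1737 CPM in erythroid-like cells, against 269, 307, 491, 1080.4 and 302 CPM in stem-like cells (1.40, adjusted p = 0.0333). The stem-like value of m605 lay above the lowest erythroid-like one, that of m4528, but below the erythroid-like value of m605 itself. DUT was not called in the 4 other lineages, with changes of 0.61 to 0.94.

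Among the genes that supply histones and copy chromatin, 4 of 6 were called higher in erythroid-like cells and CHAF1B and CASP8AP2 in no lineage. NASP, a chaperone of histones H3 and H4, had 371, 340 and 428 CPM in erythroid-like cells, against 37.8, 37.5, 73.7, 14.8 and 55.9 CPM in stem-like cells (3.06, SE 0.39, adjusted p = 0.000285). HELLS, a remodeler needed for DNA methylation, had 51.8, 203 and 77.3 CPM in erythroid-like cells, against 26.9, 9.51, 8.56, 29.6 and 5.59 CPM in stem-like cells. Its changes of 3.13 in erythroid-like, 3.59 in neutrophil-like, 3.67 in monocyte-like, 2.64 in megakaryocyte-like and 3.55 in multipotent progenitor-like cells were all called. UHRF1, which brings the maintenance methyltransferase to new DNA, rose by 2.26 to 2.95 in erythroid-like, neutrophil-like and monocyte-like cells. SLBP, which binds the ends of histone mRNAs, was called in erythroid-like cells (1.87, adjusted p = 0.0138). CHAF1B is a subunit of the assembly factor that places histones behind the fork. It had 216, 149 and 138 CPM in erythroid-like cells, against 203, 232, 202, 28.4 and 119 CPM in stem-like cells. These values overlapped fully across mice, but within m4528, m605 and m606 the erythroid-like value was the higher. CASP8AP2, needed for histone mRNA processing, had 135, 77.0 and 93.9 CPM in erythroid-like cells, against 63.5, 81.2, 128, 70.3 and 32.8 CPM in stem-like cells (0.33, adjusted p = 0.771). Its erythroid-like value was also the higher within each of m4528, m605 and m606. NASP has a pseudogene copy, NASP-PS1, in the tables.

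Fork protection, checkpoint and repair was a divided group. Of its 9 genes, TIPIN and RAD51AP1 were called in 4 lineages, CLSPN and BLM in erythroid-like cells, and USP1, DTL, UNG, EXO1 and WDR76 in none. TIPIN, part of the complex that steadies the fork, rose by 2.30 in erythroid-like and by 2.25 in megakaryocyte-like cells (adjusted p = 0.00684 and 0.0155). RAD51AP1, which acts in DNA repair by homologous recombination, had 128, 124 and 133 CPM in erythroid-like cells, against 23.9, 1.43, 18.8, 4.93 and 26.8 CPM in stem-like cells, with a narrow spread between erythroid-like mice and no overlap. CLSPN, which relays the fork signal to the checkpoint kinase, and BLM, the Bloom helicase, changed by 2.89 and 2.77 in erythroid-like cells (adjusted p = 0.0489 and 0.0251). UNG, the glycosylase that removes uracil from DNA, had 17.3, 11.7 and 27.0 CPM in erythroid-like cells, against 4.22, 16.4, 27.3, 0 and 30.8 CPM in stem-like cells (0.048, SE 0.90, adjusted p = 0.993), and this change was below 0 with DESeq2 size factors. USP1, which removes ubiquitin from PCNA, and DTL, the adaptor that marks CDT1 for destruction, were not called, at 0.97 and 1.58 (adjusted p = 0.186 and 0.167). EXO1, an exonuclease of mismatch repair, and WDR76 were not called, at 3.01 and 1.55 (adjusted p = 0.0817 and 0.307).

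E2F8, a repressor of E2F target genes that is itself an E2F target, showed the highest change of the 37 genes. It had 118, 78.7 and 66.7 CPM in erythroid-like cells, against 14.2, 3.71, 4.19, 2.47 and 1.20 CPM in stem-like cells. The groups lay far apart, and the change was 5.31 (SE 0.48, adjusted p = 2.66e-05). The stem-like values of m605 and m606 rest on 2 and 3 counts: against these the erythroid-like level was 31.9-fold (95% counting interval 8.81 to 264) and 55.6-fold (18.96 to 270) higher. These intervals treat counts, taken as reads here, as independent and cover counting error only. The other lineages had changes of 4.77 in megakaryocyte-like, 4.59 in monocyte-like, 4.51 in multipotent progenitor-like and 3.91 in neutrophil-like cells, all called. Only 0.309% of stem-like cells at day 17 had E2F8 on, against 36.5% of erythroid-like cells.

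**Figure D4:**
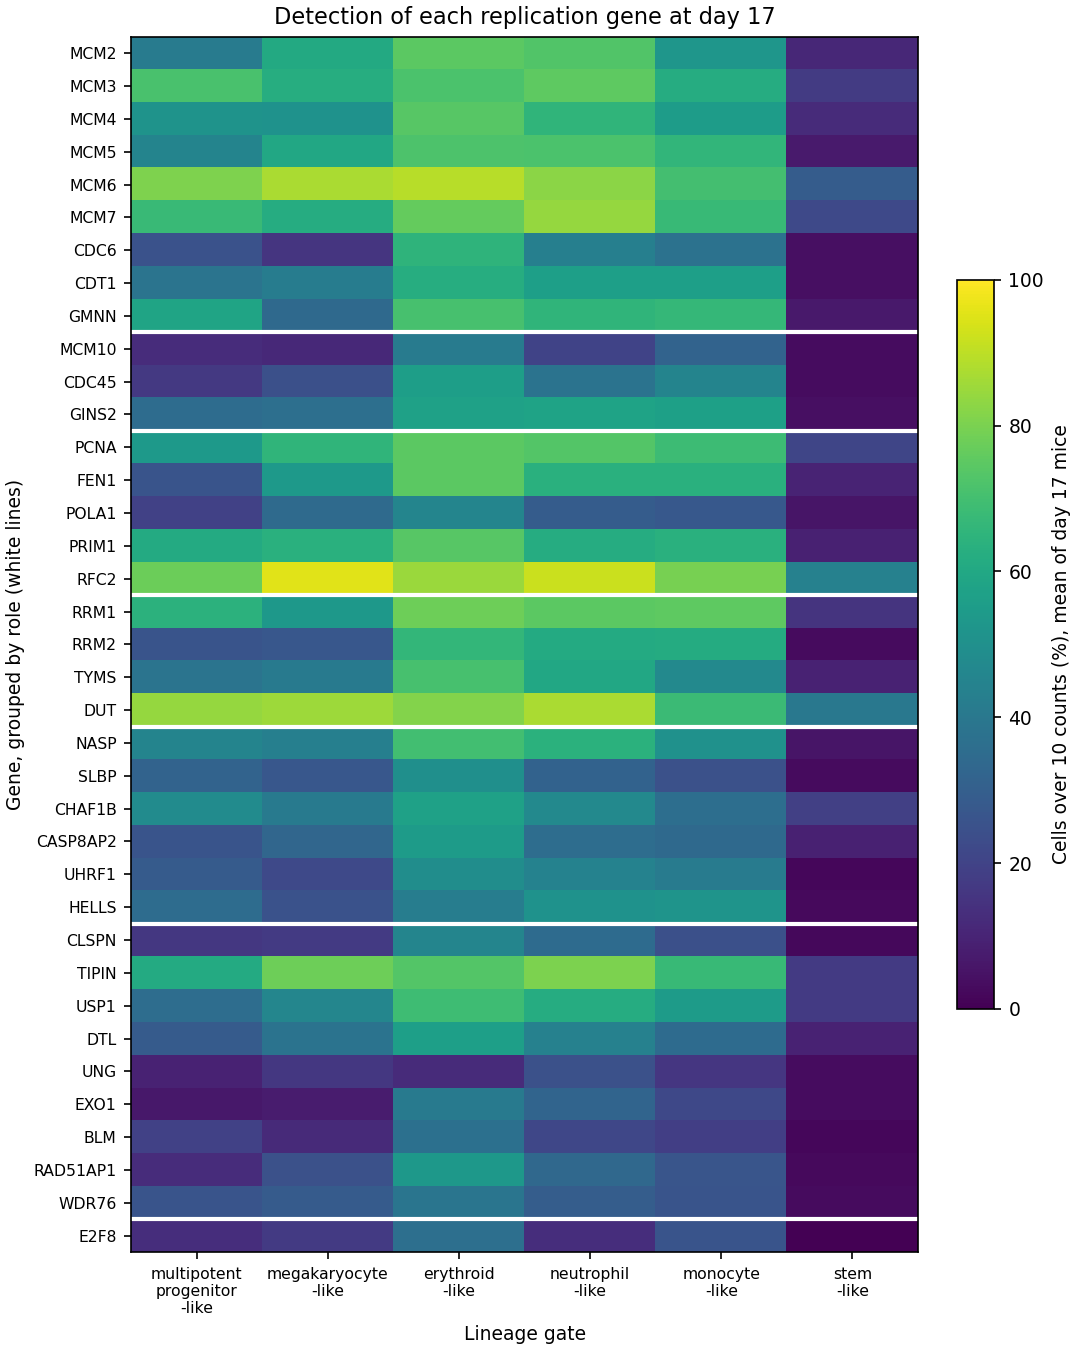
Share of cells above 10 counts for each replication gene (rows, grouped by role) and lineage gate (columns), as the mean of the day 17 mice with at least 10 cells. Stem-like cells form the dark right column, with RFC2 (43.8%) and DUT (40.1%) its brightest entries.

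Erythroid-like and megakaryocyte-like cells, a pair of lineages held to share a progenitor, were also compared directly. The members' median change was 0.49, against 0.15 over all genes tested. RRM1 (1.23, SE 0.27, adjusted p = 0.0194) and NASP (1.60, SE 0.36, adjusted p = 0.0218) were called higher in erythroid-like cells, and 1.81% of all genes were. RFC2 was called lower at -0.95 (SE 0.24, adjusted p = 0.0418), and 2.65% of all genes were. RRM2 differed by as much as NASP (1.61) but with a larger error (SE 0.52, adjusted p = 0.110). Without m4528 or without m606 no member was called higher, where 0.352% and 0.133% of all genes were.

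Few stem-like cells had many of these genes on at any day. Replication-high cells made up 17 of 178 stem-like cells at day 3 (9.55%, exact 95% interval 5.66 to 14.9), 7 of 76 at day 10 (9.21%, 3.78 to 18.1), and 12 of 108 (11.1%, 5.87 to 18.60), 0 of 16 (up to 20.6) and 5 of 37 (13.5%, 4.54 to 28.8) in m4528, m605 and m606 at day 17. The mixed plate had 4 of 21. These intervals cover counting error only, and they all overlap. The mean of day 17 minus that of the earlier days was -1.17 percentage points (two-sided exact permutation test over 5 mice, p = 1, with 0.1 the smallest p that 10 splits allow). Without m605, which had the fewest stem-like cells, the difference was 2.93 points. Called by the S phase score of scanpy, the shares were 6.18% at day 3, 13.2% at day 10 and 11.1%, 6.25% and 10.8% in the day 17 mice. Single plates ranged from 3.70% to 21.7% where any such cell was found.

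A few stem-like cells held much of the replication mRNA. The 45 replication-high cells of 436 (10.3%) contained 17.5% of the counts of stem-like cells but 50.7% of their replication counts, a concentration that follows in part from how they were picked. Their stem markers were as many as in the other cells, with a median of 5 on in both groups. Their median depth was 221560 counts, against 109198 in the rest, so depth moves with this split and its part was not tested. Of the 45, 16 also had 10 or more genes of G2 and M phase on, against 4 of the other 391. The 391 other cells, chosen for having under 10 of these genes on and pooled over mice, were not empty of every member: RFC2 was on in 38.9% of them, MCM6 in 30.9%, DUT in 25.6%, PCNA in 24.3%, MCM7 and CHAF1B in 18.7% each and RRM1 in 16.1%. At the other end, CLSPN and E2F8 were on in 0 of the 391, which at a floor of 3 cells allows a share of up to 0.767%, MCM10 in 0.256% and RRM2, RAD51AP1, UHRF1 and UNG in 0.512% each.

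Taken over all kept cells, the summed level of the replication genes was 4053 CPM at day 3, 6790 CPM at day 10, and 9331, 8357 and 8230 CPM in the day 17 mice, so that the 3 later mice all lay above both earlier ones. Gene by gene, 37, 35 and 36 of the 37 lay above day 3 in m4528, m605 and m606 of day 17, and 34, 27 and 27 lay above day 10. Stem-like cells were 93.7% of the cells at day 3, 71.0% at day 10 and 37.5%, 11.2% and 19.6% in the day 17 mice; more cells of a replicating type and more mRNA per cell cannot be told apart in such sums. RRM2 had 80.4 CPM at day 3, 229 CPM at day 10 and 418, 318 and 318 CPM at day 17. In edgeR's slope over day, with the count table as a term, 37 of 37 members were positive with a median of 1.43 (log2 per 14 days), against 0.035 over all genes. None of the 37 was called, nor was any of the 16740 genes tested (0% called, 1473 at an unadjusted p under 0.05, 28 of them members). DESeq2 on the same sums called 10 members (CDC45, CDC6, CDT1, FEN1, GMNN, MCM3, MCM5, NASP, RRM2 and TIPIN), where it called 2.02% of all genes higher. The count table and the day cannot be separated fully, since the second table holds day 17 mice only. The table term takes up the level of m605 and m606, so the slope was set by m4539, m4533 and m4528. No day has a replicate among these mice.

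**Figure D5:**
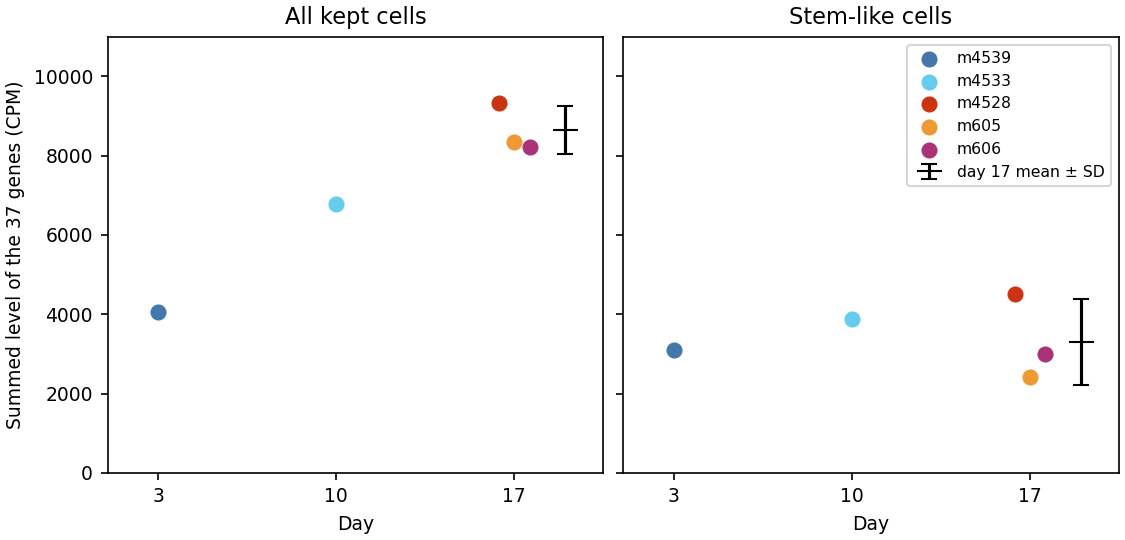
Summed level of the 37 replication genes in CPM for each mouse by day, over all kept cells (left) and over stem-like cells (right). Black bars give the day 17 mean and SD of 3 mice; all-cell sums run from 4053 to 9331 CPM and stem-like sums from 2411 to 4520 CPM.

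Within stem-like cells no member was called over day. Their summed level was 3101 CPM at day 3, 3876 CPM at day 10 and 4520, 2411 and 2993 CPM in the day 17 mice, and the later values lay on both sides of the earlier ones. The slope was positive for 27 of 37 members, with a median of 0.36 against -0.041 over all genes. With the table as a term, this slope too was set by m4539, m4533 and m4528, not by m605 and m606. edgeR called none of the 37 and none of the 13625 genes tested (0%), and 0 members had an unadjusted p under 0.05, where 229 genes did. DESeq2 also called 0 members. With 2 residual degrees of freedom, a member that was not called is not shown to be level over day. Mouse m605, with 16 stem-like cells, stood lowest: 6 of its 37 members were above day 3 and 7 above day 10, against 25 and 23 in m4528 and 19 and 16 in m606. At day 17 the summed level was 11040.3 CPM ± 556 in erythroid-like, 8684 ± 2231 in megakaryocyte-like, 8690.3 ± 1876 in neutrophil-like and 8472 ± 2298 in monocyte-like cells, against 3308 ± 1089 in stem-like cells (SD, n = 3 mice).

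Other genes moved with these 37. Of 61 further replication genes, 26 were called higher in erythroid-like, 20 in monocyte-like, 16 in neutrophil-like, 15 in megakaryocyte-like and 2 in multipotent progenitor-like cells, with medians of 1.74, 1.42, 1.46, 1.24 and 0.94. Of 28 genes of G2 and M phase, 17, 14, 4, 8 and 1 were called in the same order, beside 5.30%, 4.73%, 3.20%, 1.69% and 0.477% of all genes. Over 20 sums of mouse and lineage, which share mice and depth, the genes outside the list most like the members' mean were CHAF1A (Pearson's r = 0.945), the partner subunit of CHAF1B, TIMELESS (0.942), the partner of TIPIN, NCAPG (0.941), a subunit of condensin, RAN (0.939), SLC43A3 (0.939) and TK1 (0.936), thymidine kinase. Within the list, MCM7 (0.966), TIPIN (0.958) and CDT1 (0.954) followed the mean of the other members most closely, and POLA1 (0.390), CASP8AP2 (0.399) and CHAF1B (0.472) least. These correlations describe the sums and carry no test.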

How the data were processed

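Raw counts per gene and cell barcode were deposited by the authors in 2 tables, without normalization, and plates were read from the column names. Per the submitters' processing notes the build was GRCm38. No source used here names the aligner, the counting tool, or the use of strand or of molecular identifiers, so counts were taken as reads. Of 9357 barcodes, 1010 had at least 500 genes and 10000 counts and were kept; they held 98.6% of the counts of each table, and no doublet caller was run because cells were sorted into wells. The tables' plates share 96 well barcodes, and no pair among the 91 pairs of plates was a copy (lowest chi-square per gene 28.8). Columns of per-sample values left unused numbered 0.

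Lineage markers were fixed lists, but the gating rule and the call of a replication-high cell were set with values in view, and the members and lists were chosen with earlier results of these data known. Counts were summed per mouse, and per mouse and lineage where a mouse had at least 10 such cells; the mouse was the replicate, and the mixed plate entered no test. Tests used edgeR 4.0.16 (TMM, filterByExpr, quasi-likelihood) in R 4.3.3, with DESeq2 1.42.0 as an alternative. On simulated counts, changes of 2-fold and 4-fold over 14 days were recovered by neither day fit of edgeR. In erythroid-like over stem-like cells none of the simulated 2-fold changes and few of the 4-fold ones were recovered. A gene that was not called is therefore not shown to be level. The lineage fit has the mouse as a block because lineages of 1 mouse come from the same animal. The day fit has the table as a term and leaves 2 residual degrees of freedom. Its slope rests on the mice of the first table. Cells were clustered for an alternative gating, without cell cycle genes, with scanpy 1.11.5 and leidenalg 0.10.2. All 37 members are named; values per mouse are given at least for the members with the largest and the smallest change of each role in the comparison that calls most members, which was erythroid-like against stem-like cells. Gene positions and overlaps came from GENCODE for GRCm38 and promoters from RefSeq. Of the further replication genes listed, 61 of 62 were matched, 1 of them (2810417H13RIK) by an older symbol.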

Additional observations from a re-analysis of the deposited data

How the results depend on the processing

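Among 279 alternative values for the main results, 237 were graded the same as the main value. The grade was wide. A count was the same within a fixed factor of the main count, also where both were 0, as in most day fits. A median or lineage share was the same within the SD between mice, and a difference in stem-like share when its sign was equal. The number graded the same is therefore no measure of robustness. Another 25 were graded weaker, 4 stronger, 10 moved and 3 reversed. For members called higher, DESeq2 gave 10 by day over all cells, and 14 in multipotent progenitor-like, 26 in megakaryocyte-like and 5 in erythroid-like over megakaryocyte-like cells, where it called 2.42%, 4.86% and 3.49% of all genes in the 3 lineage comparisons. Markers gated at 100 CPM gave 1, 9 and 0 in that order, where 0.513%, 0.990% and 1.70% of all genes were called higher. A lead of 0.1 between gates, added after seeing the data, gave 1 in multipotent progenitor-like cells, where 0.257% of all genes were. It gave 1 in erythroid-like over megakaryocyte-like cells, where 1.47% of all genes were. At least 20 cells per mouse and lineage gave 0 in megakaryocyte-like and 10 in neutrophil-like cells, where 0% and 0.928% of all genes were called higher. It gave 0 in erythroid-like over megakaryocyte-like cells, where 0.153% of all genes were and the members' median change was 0.97. Monocyte-like cells reached 20 in m4528 only (23 cells), so no calls are given for them. Leiden clusters held 17, 9 and 7 neutrophil-like cells in m4528, m605 and m606, against 64, 31 and 21 by the gate. At the minimum of 10 cells this left 1 mouse, so no calls are given for that comparison. The clusters named no multipotent progenitor-like cells. They held 61, 36 and 48 megakaryocyte-like cells in the same mice, against 24, 13 and 34 by the gate. Monocyte-like cells numbered 46, 35 and 43 in the clusters, against 23, 16 and 17 by the gate. The pairing of lineages comes from the shared animal. Without the replicate block the calls were 1 in erythroid-like over megakaryocyte-like cells, where 1.21% of all genes were called higher. Over stem-like cells they were 24, 17, 14, 12 and 4 in erythroid-like, monocyte-like, neutrophil-like, megakaryocyte-like and multipotent progenitor-like cells. Of all genes, 4.22%, 4.44%, 2.42%, 1.06% and 0.596% were called higher in the same order.

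Leaving out 1 mouse at a time, calls ran from 11 to 25 in erythroid-like, 5 to 22 in monocyte-like, 2 to 19 in neutrophil-like and 0 to 15 in megakaryocyte-like cells. They ran from 0 to 3 in erythroid-like over megakaryocyte-like cells. The shares of all genes called higher ran from 0.678% to 6.35%, 0.957% to 5.86%, 0.242% to 3.81%, 0.0121% to 1.83% and 0.133% to 2.21% in the same order. Multipotent progenitor-like cells kept 1 mouse without m4528 or m606, and their members' median change ran from 1.07 to 1.81. The median by day over all cells ran from 1.23 to 1.502. The stem-like share of replication-high cells at day 17 minus earlier days ran from -3.82 to 2.93 points; it was 0.264 points with cells of 50000 counts and 2.04 points with the CPM gate. At least 6 members gave 77.5% and at least 15 gave 45% of multipotent progenitor-like cells and 62.1% of monocyte-like cells; the scanpy S phase gave 48.1%, 42.6%, 63.99% and 53.0% of multipotent progenitor-like, erythroid-like, neutrophil-like and monocyte-like cells. In erythroid-like over stem-like cells UNG was at -0.0963 with DESeq2 size factors, -0.118 with DESeq2, -0.595 with cells of 50000 counts, -0.0148 with the lead of 0.1 and -0.436 at 20 cells, and ran from -0.118 to 0.328 without single mice; RFC2 was at -0.00778, -0.0106 and -0.163 with size factors, DESeq2 and the CPM gate, and CASP8AP2 ran from -0.0611 to 0.634 without single mice. The cause of these changes was not tested. DESeq2 size factors moved the median of all genes in that comparison by -0.17 and the members' median to 2.11, so the members' change relative to all genes was 2.27, against 2.26 before. Day 3 and day 10 hold 1 mouse each, and m605 has 16 stem-like cells, which limits every statement on stem-like cells by day.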

Other observations

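The 65 ungated cells of the day 17 mice had a summed replication gene level of 8653 CPM in m4528, 4521 CPM in m605 and 7074 CPM in m606 (6749 ± 2085, SD, n = 3 mice), against 3308 ± 1089 in stem-like cells. Of the basophil or mast cell-like cells, 2 of 6 in m4528, 0 of 1 in m605 and 2 of 5 in m606 were replication-high.

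The mixed day 17 plate, left out of all tests, had 30, 27 and 11 replication genes on in the median erythroid-like, neutrophil-like and megakaryocyte-like cell, against 4 in the median stem-like cell. Its summed level was 12689 CPM in 19 erythroid-like, 8528 CPM in 16 neutrophil-like and 4584 CPM in 13 megakaryocyte-like cells, against 4346 CPM in 21 stem-like cells, so its megakaryocyte-like sum lay close to the stem-like one. Of its 93 cells, 62.4% were replication-high.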
